A study of Mus musculus with 58 samples.

Results

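SAFB-only sites were the regions of chromatin that had a peak of overexpressed SAFB and no peak in any of 8 other ChIP-seq peak lists from mouse embryonic stem cells. The peaks of all 9 lists were merged wherever they shared at least 1 bp, which gave 67384 regions. Of these, 3704 were SAFB-only, and each consisted of a single SAFB peak. They made up 34.8% of the 10632 SAFB peaks (Wilson 95% interval 33.9 to 35.8%). The sites were chosen by the presence or absence of peaks in these lists, so their absence from the other lists is a selection and not a finding. The interval covers counting error only, as do all intervals below.

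ChIP-seq sequences the DNA that is recovered with a protein, here through its FLAG epitope. SAFB came from 1 library of FB(OE)-SAFB cells, made from BirA J1 mouse embryonic stem cells; BirA is a biotin ligase. The same J1 line carried overexpressed SAFB2, hnRNPU, CIRH1A, UTP3, UTP6 and PSPC1, with 1 library each. The remaining 2 lists came from AID-FB(KI)-PSPC1 cells, in which PSPC1 was tagged at its own gene in CJ9 cells. No cells of these lists were treated, all carry the strain label 129/Ola, and 5 µg of FLAG antibody went into each immunoprecipitation. SAFB, SAFB2 and hnRNPU chromatin was crosslinked with 2 mM DSP, a protein crosslinker, and 1% formaldehyde, digested with DNase I and purified again on streptavidin. CIRH1A, UTP3, UTP6 and knock-in PSPC1 chromatin was fixed with 3% formaldehyde, and overexpressed PSPC1 chromatin with 1%, without DSP or streptavidin. The labels do not say whether a line is 1 clone or how far the tagged proteins exceeded their normal level. Peak lists give no expression, so the embryonic stem cell label was not checked against marker genes.

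SAFB, scaffold attachment factor B, is an abundant nuclear protein that binds both RNA and DNA. It was named for its binding to AT-rich scaffold or matrix attachment regions, the DNA stretches thought to anchor chromatin to the nuclear matrix, and it carries a SAP domain for DNA and an RNA recognition motif. SAFB2 is its close paralog with the same domains, and hnRNPU, also called scaffold attachment factor A, is another SAP-domain protein of the nuclear matrix. PSPC1 is a paraspeckle protein, and CIRH1A, UTP3 and UTP6 act in ribosome biogenesis.

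With 1 SAFB library there was no replicate, and no p-value was computed, since peaks are not replicates. All comparisons below describe these lists. Read depth is unknown from a peak list, and the lists differed in length, from 6670 peaks for SAFB2 to 40217 for UTP6. The 2 lists nearest to SAFB in length held 10279 peaks for hnRNPU and 9689 for CIRH1A.

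A larger share of the SAFB list stood alone than of any other list. Among all merged regions, 51.3% were held by 1 list. That share counts a region with several lists once, so it is no baseline for the shares of peaks given here. UTP6 followed SAFB with 33.1% of its peaks (32.7 to 33.6%), and the knock-in lists had 27.7 and 27.0%. The knock-in lists are 2 libraries of the same tagged protein, and overexpressed PSPC1 is a further list of it. Peaks shared among these lists do not count as standing alone, whereas SAFB has no second library. The shares were 20.3% for hnRNPU, 18.3% for SAFB2 and 10.2% for overexpressed PSPC1, but 2.75% for UTP3 and 2.20% for CIRH1A. Taking the 6670 best scoring peaks of every list removed the difference in length and moved the UTP6 share to 9.78%. This cut kept every SAFB2 peak, weak ones included, but only the best scoring part of each longer list. SAFB then stood at 41.1% (39.9 to 42.3%), SAFB2 at 35.8% (34.6 to 36.9%) and hnRNPU at 27.3% (26.3 to 28.4%). The other 6 lists lay between 9.78 and 19.7%. The 3 lists with the highest shares were the 3 made with DSP, DNase I and streptavidin, so protein and protocol cannot be told apart here.

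**Figure D1:**
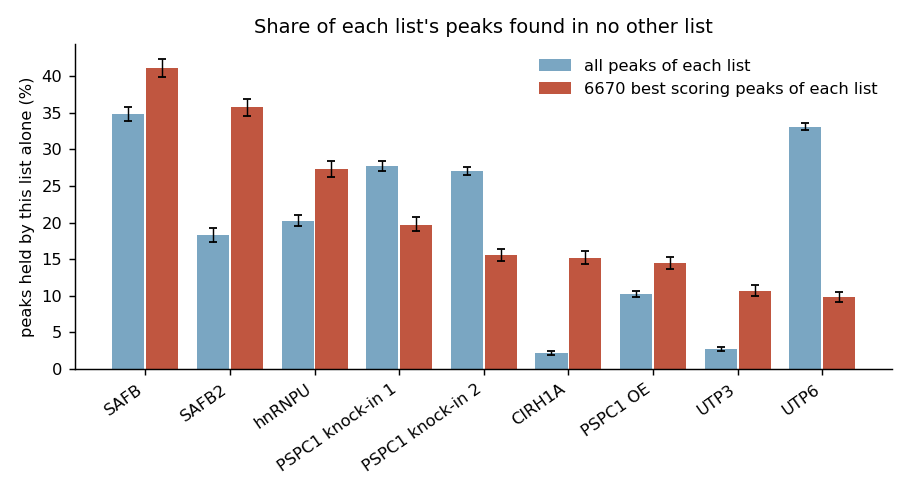
Share of each list's peaks that were found in no other list (%), over all peaks (blue) and over the 6670 best scoring peaks of each list (red); bars are Wilson 95% intervals. SAFB has the highest share in both, 34.8 and 41.1%, while UTP6 drops from 33.1 to 9.78%.

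The SAFB2 list took the most SAFB peaks out of the SAFB-only class. Without the SAFB2 list the number of SAFB-only sites would have been 5713, a gain of 2009. Leaving out UTP6, the longest list, gave 4257 sites. Each of the remaining lists, left out on its own, added between 13 and 74 sites, and both knock-in lists together added 132. The overlap required had a similar weight: when overlaps counted as shared only if they covered 50% of both peaks, there were 5784 sites.

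Near the limit of the rule, 69 members (1.86%) lay within 100 bp of a peak of another list, and 1 touched such a peak without sharing a base. On the other side of the limit, 66 SAFB peaks were left out for a longest overlap of under 100 bp, with 1 bp as the smallest. The members within 100 bp had a median width of 1889 bp and a median score of 81.8, against 1779 bp and 75.2 for the peaks just outside. Most members were well clear of the limit. The median distance to the nearest peak of any other list was 6.70 kb, 79.9% were over 1 kb away, 43.8% over 10 kb and 7.59% over 100 kb. The 3 members on a short random sequence of chromosome 16, where no other list had a peak, count in these shares but not in the median.

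SAFB-only peaks were narrower than other SAFB peaks. Their median width was 1373 bp, with quartiles of 970 and 2120 bp and a range from 419 to 7741 bp. The 1982 SAFB peaks shared with SAFB2 and no other list had a median of 1890 bp, and the 1706 shared with SAFB2 and further lists 2308 bp. The 3240 peaks shared with other lists but not SAFB2 had 1734 bp. A narrow peak has less room to overlap, and width therefore enters the rule. In every list the single-list sites had a lower median width than all its peaks. The medians were 1373 against 1699 bp for SAFB, 1046 against 1275 bp for SAFB2 and 557 against 796 bp for hnRNPU. By width quartile of the SAFB list, the SAFB-only share was 52.5, 35.7, 29.2 and 21.9% from the narrowest to the widest. Together the SAFB-only sites covered 6.32 Mb of the 22.0 Mb under SAFB peaks.

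The deposited score is the peak caller's value with no stated unit and ranks peaks within the SAFB list. SAFB-only sites had a median score of 70.8, with quartiles of 58.2 and 92.8. This was above the 65.3 of SAFB peaks shared with other lists but not SAFB2, and below the 109.8 of those shared with SAFB2 alone and the 89.0 of those shared with SAFB2 and others. In the lower 7 score deciles the SAFB-only share was 37.1 to 42.8%. It was 32.4, 27.9 and 16.4% in the upper 3. In the same 10 steps the share of peaks held with SAFB2 and no other list went from 5.64 to 50.9%, while that of peaks held with other lists but not SAFB2 went from 43.8 to 5.83%. The best scoring SAFB peaks were thus mostly shared with SAFB2, and 174 of the 1063 peaks of the top decile were SAFB-only. In every list the median score of single-list sites was below that of all its peaks. It was 70.8 against 74.9 for SAFB, 59.2 against 66.7 for SAFB2 and 75.2 against 110.6 for UTP6. Among SAFB-only sites, score and width had a Spearman correlation of 0.30 across the 3704 peaks, which come from 1 library.

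**Figure D2:**
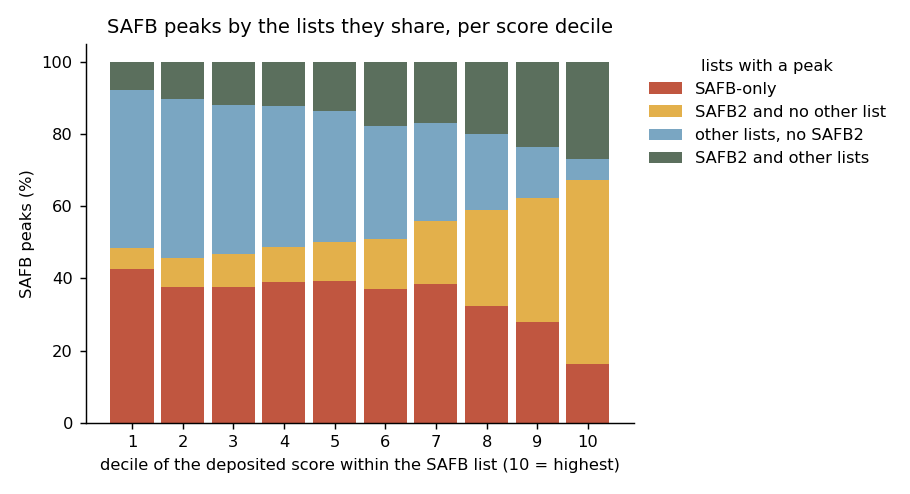
SAFB peaks (%) in each decile of the deposited score, from the lowest (1) to the highest (10), split by the lists with a peak in the region. The SAFB-only part is 42.8% in the lowest and 16.4% in the highest decile, and the part shared with SAFB2 alone rises from 5.64 to 50.9%.

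The 5 SAFB-only sites with the highest scores were each 130 to 429 kb from the next SAFB-only site, and over 10 kb from any other list. The leading site, chrX:29651269-29653747, had a score of 368 and ranked 57 in the SAFB list. It was 2479 bp wide, its nearest peak of any other list was 155 kb away, from UTP6, and the nearest SAFB2 peak was 378 kb away. The second, chr17:89992958-89994228, had a score of 256 and a SAFB2 peak as its nearest neighbour at 62.5 kb. It was followed by chrX:162175333-162176653 with a score of 241, chr3:123521937-123523297 with 239 and chr16:83319444-83321777 with 237. Their nearest peaks of another list were hnRNPU at 82.3 kb, SAFB2 at 77.0 kb and UTP6 at 18043 bp. Among all members, 43.8% were over 10 kb from any other list. Coordinates are those of the lists, counted from 1, on the mm9 build named in the submitters' processing notes. No annotation or sequence of that build was used here, so no site is assigned to a gene, exon or intron and no sequence is shown.

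The 5 widest sites had low scores, although score and width had a Spearman correlation of 0.30 over all SAFB-only sites. The 5 widest were chr7:121400705-121408445 at 7741 bp, chr8:128949546-128957124 at 7579 bp, chr8:44177768-44185333 at 7566 bp, chr15:79703300-79710554 at 7255 bp and chrX:99334636-99341844 at 7209 bp. Their scores were 53.6 to 67.4, below the member median of 70.8. On chromosomes 7 and 15, and at chr8:128949546-128957124, peaks of several other lists lay 1983 to 3118 bp from the edges. At the chromosome 7 site these were both knock-in lists, overexpressed PSPC1, hnRNPU, UTP3 and UTP6, within 2468 bp. The remaining sites, chr8:44177768-44185333 and the one on the X chromosome, lay 13.5 and 42.2 kb from any other list.

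SAFB-only sites were on every autosome and on X. Their number per Mb ranged over the autosomes from 1.06 on chromosome 11 to 1.66 on chromosome 3, with a median of 1.34. The X chromosome was above this range with 1.94 per Mb. It held 323 sites, 8.72% of all SAFB-only sites (7.85 to 9.67%), where X held 2.78% of all merged regions and 2.82% of all regions found in 1 list. Of the other SAFB peaks 5.82% were on X, of the SAFB2 peaks 6.48%, and of the 7 remaining lists 1.30 to 2.85%. Among the SAFB peaks on X, 44.5% were SAFB-only (40.9 to 48.1%), against 34.0% on chromosomes 1 to 19 (33.0 to 34.9%).

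The share on X was set beside the density of the other lists, since the rule leaves out SAFB peaks that overlap them. The 7 lists other than SAFB and SAFB2 had 16.7 peaks per Mb on X and 37.3 to 87.7 on the autosomes. On X 73.0% of SAFB peaks overlapped none of these 7 lists, against 51.7% on the autosomes. Of such peaks 60.9% (56.7 to 65.0%) lacked SAFB2 on X, and 65.7% (64.4 to 67.0%) on the autosomes. Among SAFB peaks free of the 7 lists, SAFB-only means lacking SAFB2 by the rule. In that subset the SAFB-only share was not higher on X, and the intervals overlap. Whether the density of the other lists accounts for the share on X was not tested. SAFB peaks shared with SAFB2 alone had 10.4% on X (9.17 to 11.9%), and those shared with other lists but not SAFB2 2.99% (2.46 to 3.64%). Across 20 chromosomes the SAFB-only share of SAFB peaks and the density of the 7 lists had a Pearson correlation of -0.75 and a Spearman correlation of -0.59. Without X the values over 19 chromosomes were -0.65 and -0.52. Both quantities come from the same merged lists, since a SAFB peak that overlaps a peak of the 7 lists is not SAFB-only. How much of the relation comes from the rule was not tested. Chromosome 1 had the highest density, 87.7 peaks per Mb, and a SAFB-only share of 28.2%, the lowest among the autosomes and X. Its share of a list's peaks ranged from 7.93 to 22.4% over the 7 lists. Chromosome 8 had 74.6 peaks per Mb, a SAFB-only share of 28.5% and a range of 4.72 to 9.03%. Correlations without these chromosomes were not computed.

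**Figure D3:**
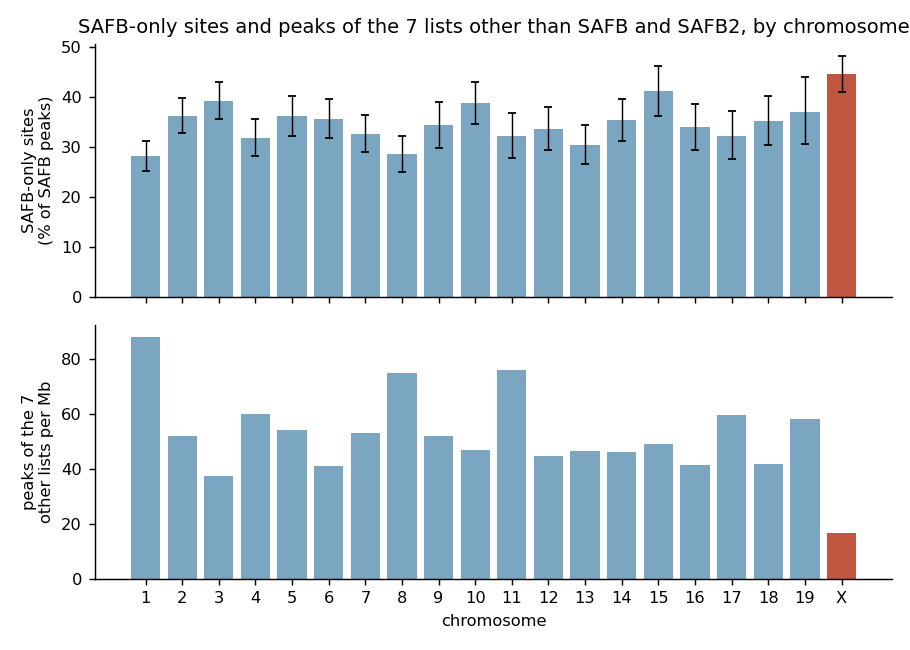
Top, SAFB-only sites as a share of the SAFB peaks of each chromosome (%), with Wilson 95% intervals; bottom, peaks per Mb summed over the 7 lists other than SAFB and SAFB2. Of these chromosomes, X (red) has the highest share, 44.5%, and the lowest density, 16.7 peaks per Mb.

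X-linked and autosomal SAFB-only sites were compared by score, width, distance to SAFB2 and distance to the next SAFB-only site. Their median score was 77.4 (70.9 to 81.8), against 70.5 (69.4 to 71.3) on the autosomes, and their median width 1260 bp (1179 to 1368 bp) against 1397 bp (1361 to 1431 bp). A SAFB2 peak lay within 10 kb of 17.96% of them (14.2 to 22.5%) and of 14.1% (13.0 to 15.3%) of the autosomal sites. The intervals overlap in these 3 measures, which does not show that the sites are alike. They did not overlap for a SAFB-only neighbour within 50 kb, which 27.9% of the X-linked sites had (23.26 to 33.0%) and 21.8% of the autosomal sites (20.4 to 23.25%), with more SAFB-only sites per Mb on X. The share on X was 11.7% (9.75 to 13.9%) in the highest score quartile of the SAFB-only sites and 7.24 to 8.21% in the lower 3, of which the lowest quartile has an interval reaching 10.15%. Along X the sites were spread out. Each of its 17 windows of 10 Mb held some, from 7 in the first to 29 in the windows starting at 20 and 40 Mb.

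Most SAFB-only sites stood apart from each other. The median distance from one to the next was 195 kb, and 77.7% had no other SAFB-only site within 50 kb. The 825 sites with such a neighbour were 22.3% of the total (21.0 to 23.6%). A SAFB peak that was not SAFB-only lay within 50 kb of 30.7% of the sites (29.2 to 32.2%). With peaks of every list counted, 38.7% of the sites had no SAFB or other peak within 10 kb. For regions of any list that stood alone, 80.7% had another such region within 50 kb, but there were 34573 of them. The share with a neighbour of the same kind differed widely between lists, as did the number of sites. It was 6.07% for the 1220 SAFB2-only sites, 10.8% for the 213 of CIRH1A, 14.2% for the 401 of UTP3, 16.3% for the 2083 of hnRNPU and 25.2% for the 2324 of overexpressed PSPC1. The larger sets had 56.3 and 58.8% for the 5115 and 6195 knock-in sites, and 52.9% for the 13318 of UTP6. Some neighbours were closer than the width of a peak. Of the members 208 lay within 1 kb of another member, and when those were joined, 3599 groups were left, of which 17.8% had a neighbour within 50 kb.

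Runs of SAFB-only sites with gaps of at most 50 kb were short. There were 320 pairs, 44 runs of 3, 12 of 4 and 1 of 5, and the 57 runs of 3 or more held 185 sites, or 4.99%. X held 9 of these 57 runs, or 15.8%, with 8.72% of the SAFB-only sites, and chromosome 15 held 6, or 10.5%, with 4.16% of the sites. When members within 1 kb were joined, 38 runs of 3 or more were left. The longest run was chr6:111333628-111415349, with 5 sites of 946 to 1359 bp and scores of 59.1 to 77.1 over 81.7 kb. Within it lay 1 shared SAFB peak, 1 SAFB2 peak, 3 UTP6 peaks and 1 peak of overexpressed PSPC1. Of the 12 runs of 4 sites, the 4 that come first by position were chr1:96124754-96153151, chr3:71214640-71249845, chr7:66318451-66353200 and chr8:58830870-58853907, over 23.0 to 35.2 kb. In those on chromosomes 1, 7 and 8 no other list had a peak, and no other SAFB peak was present.

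The nearest SAFB2 peak was at a median distance of 108 kb from a SAFB-only site. A SAFB2 peak lay within 1 kb of 228 sites, or 6.16% (5.43 to 6.98%), where the value over all regions without a SAFB2 peak was 1.31%. These 60789 regions include the 3704 SAFB-only sites, which account for 228 of the 799 with a SAFB2 peak within 1 kb. Within 10 kb the share was 14.5% (13.4 to 15.6%) against 7.43%, within 50 kb 31.5% against 25.2%, and within 100 kb 48.0% (46.4 to 49.6%) against 41.6%. The ratio of the shares was 4.68 within 1 kb, 1.95 within 10 kb and 1.15 within 100 kb. The value at 10 kb moved with the definition of a member, to 26.9% when shared meant an overlap of 50% of both peaks, and to 8.99% when members had to be 1 kb from any other list. Single-list sites of the 7 remaining lists had a SAFB2 peak within 1 kb in 0.55 to 1.88% of cases and within 10 kb in 5.59 to 11.5%. SAFB peaks shared with other lists but not SAFB2 had values of 1.51 and 7.65%. The interval of CIRH1A-only sites, of which there were 213, reached 4.73% within 1 kb and 15.7% within 10 kb, and that of UTP3-only sites 14.96% within 10 kb.

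**Figure D4:**
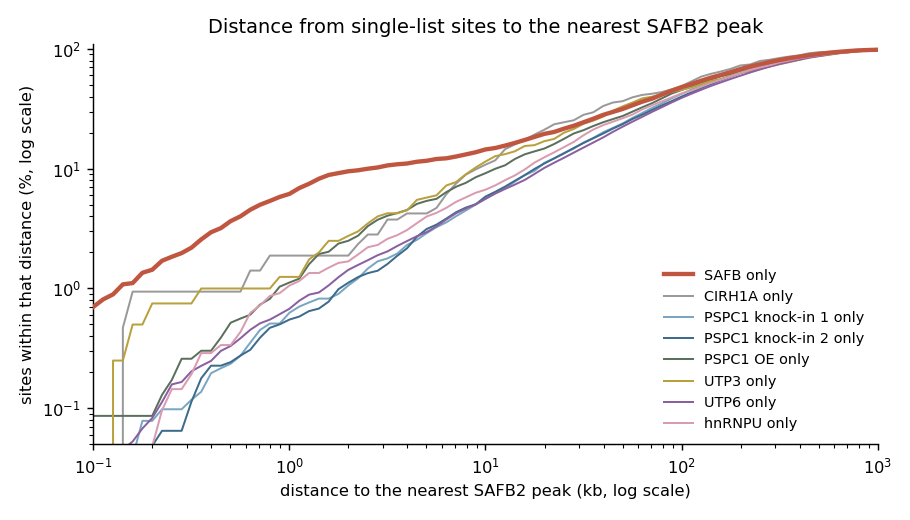
Share of single-list sites (%, log scale) within a given distance of the nearest SAFB2 peak (kb, log scale), 1 line per list. The SAFB-only line is highest within 1 kb, at 6.16%, and within 10 kb, at 14.5%; within 100 kb it stands at 48.0%, close to the 48.8% of CIRH1A-only sites and above the 39.0% of UTP6-only sites.

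The sites closest to SAFB2 often lay beside a SAFB peak that was itself shared. The 5 with the smallest gap, 1 to 11 bp, were chrX:55638323-55640486, chr2:147747558-147749021, chr1:100693368-100694343, chr3:125606304-125608192 and a site on an unplaced sequence. Each of them also had a shared SAFB peak 0.018 to 0.636 kb away. Among all members, 185 had a shared SAFB peak within 1 kb, and 114 of these, 61.6%, had a SAFB2 peak within 1 kb. Of the 3519 members without such a SAFB neighbour, 114 had a SAFB2 peak within 1 kb, 3.24% (2.70 to 3.88%), and 11.1% (10.1 to 12.1%) had one within 10 kb. Both values were above the 1.31 and 7.43% of all regions without a SAFB2 peak, from which no such regions were removed. Seen from SAFB2, 229 of its peaks lay within 1 kb of a SAFB-only site. Of these, 116 (50.66%) were in a region with another SAFB peak, while 55.85% of all SAFB2 peaks were in a region with SAFB. Another 82 were in no other list, as were 18.3% of all SAFB2 peaks.

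Peaks of the other lists stood beside SAFB-only sites to different extents. The value over all regions without a peak of the list in question is given with each share. Those regions include the SAFB-only sites themselves. Within 10 kb, hnRNPU peaks were found at 16.5% of sites (12.1% over all regions) and UTP3 peaks at 25.1% (19.4%). The reverse held for the PSPC1 lists and UTP6. Overexpressed PSPC1 peaks were within 10 kb of 20.9% (24.9%), UTP6 peaks of 44.0% (51.7%), and those of the knock-in libraries of 8.88% (20.7%) and 11.5% (23.8%). For CIRH1A the value was 11.6% (12.5%), and its interval of 10.6 to 12.6% includes the latter. These shares depend on the length of each list. With the 6670 best scoring peaks per list, the shares within 10 kb were 15.1% for UTP3 (8.57% over all regions), 14.5% for SAFB2 (7.43%), 12.7% for UTP6 (9.97%), 10.96% for hnRNPU (7.42%) and 8.26% for CIRH1A (8.51%). UTP6 was then above the value over all regions, where with its full list it was below. The PSPC1 lists stayed below it, at 3.83% (8.29%) for the overexpressed protein and 1.92% (8.26%) and 2.30% (7.53%) for the knock-in. Within 100 kb SAFB2 was the one list found more often beside SAFB-only sites than over all regions. The shares of the others were 41.9% for CIRH1A (61.6%), 49.9% for hnRNPU (63%), 60.6% for UTP3 (74.3%), 60.9% for overexpressed PSPC1 (79.2%), 85.5% for UTP6 (93.5%), and 40.2% (66.6%) and 45.2% (70.5%) for the knock-in libraries.

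At 1 kb the order was not that of 10 kb. UTP3 peaks lay within 1 kb of 7.07% of sites (2.3% over all regions), hnRNPU peaks of 3.94% (1.34%), CIRH1A peaks of 2.38% (1.1%), UTP6 peaks of 12.9% (9.67%) and peaks of overexpressed PSPC1 of 3.08% (1.95%). Both knock-in lists were below the value over all regions, at 1.62% (3.1%) and 2.11% (3.57%). At this distance 6 of the 8 lists were thus found more often beside SAFB-only sites than over all regions, and the knock-in PSPC1 lists less often. When members beside a shared SAFB peak were left out, the largest fall was for SAFB2. Without those members the SAFB2 share was 3.24% in place of 6.16%, that of UTP3 6.82% in place of 7.07% and that of hnRNPU 3.58% in place of 3.94%.

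**Figure D5:**
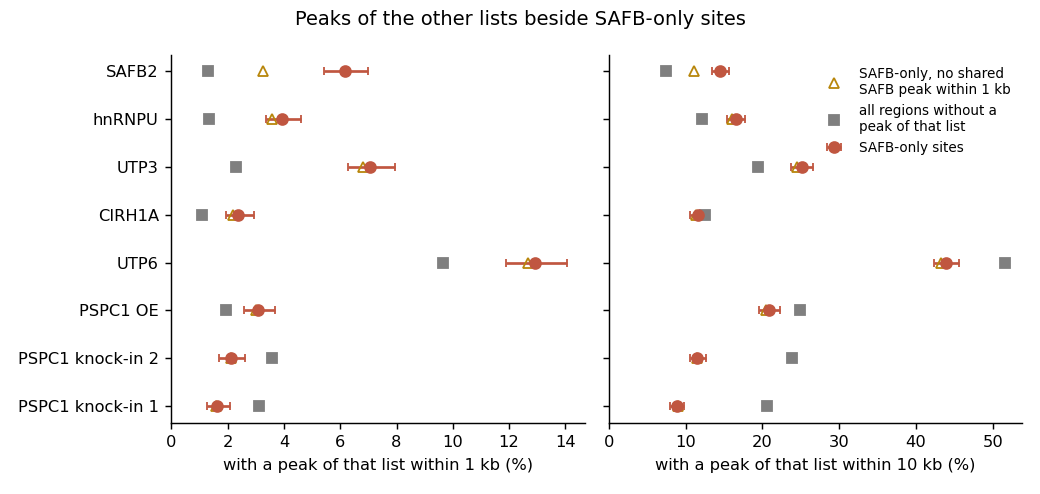
Share of sites (%) with a peak of each list within 1 kb (left) and 10 kb (right): SAFB-only sites with Wilson 95% intervals (circles), SAFB-only sites with no shared SAFB peak within 1 kb (triangles), and all regions without a peak of that list (squares). The regions of the squares include the SAFB-only sites. SAFB2 moves from 6.16 to 3.24% at 1 kb when sites beside a shared SAFB peak are left out, and both knock-in PSPC1 lists lie below the squares.

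The surroundings of SAFB-only sites were compared by score. From the lowest to the highest quartile of member scores, the share with a SAFB2 peak within 10 kb was 15.1, 14.7, 14.5 and 13.6%, with overlapping intervals. Within 1 kb it was 4.97, 5.62, 6.16 and 7.88%, where the lowest interval, 3.75 to 6.56%, and the highest, 6.32 to 9.80%, also overlap. The share with a UTP6 peak within 10 kb was 45.5% (42.3 to 48.7%) in the lowest and 40.4% (37.3 to 43.6%) in the highest quartile.

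Counted in 2648 bins of 1 Mb on chromosomes 1 to 19 and X, SAFB-only sites were found in most bins. None were found in 31.2% of bins, and 77 bins held 5 or more. Their number per bin had a Pearson correlation of 0.15 and a Spearman correlation of 0.14 with that of SAFB2-only sites. With all SAFB2 peaks the values were 0.25 and 0.24, and with the other SAFB peaks 0.19 and 0.17. The single-list sites of the knock-in libraries had negative values, -0.14 and -0.17 by Pearson, and those of UTP6 -0.12. All these correlations are weak. Bins share mappability and base composition, which were not measured here.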

How the data were processed

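ChIP-seq peak lists of 9 libraries were used, and the other 49 samples of the series were not analysed here. Each list holds a chromosome, start, end, peak name and score per peak. Peak names carry the name MACS in the deposited files, and the score is the authors' deposited value with no stated unit; the caller's version, threshold and control are not given in the sources used here. The submitters' processing notes name the build mm9 and the tools CASAVA, Bowtie2 and TopHat. Lists were deposited per library. The lowest score was 30 in the knock-in lists and about 50 elsewhere. Read depth is unknown, so the length of a list depends on a depth that could not be taken into account.

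Peaks sharing at least 1 bp were merged with Python 3.11.15 and numpy 2.4.6, and figures drawn with matplotlib 3.10.9. Distances run from edge to edge. Shares have Wilson 95% intervals (scipy 1.17.1). The procedures were checked on simulated lists. Named sites are the 5 with the highest score, the 5 widest, the 5 nearest to SAFB2 and the 5 longest runs, with ties by position. The largest peak end stood for the length of a chromosome. The members, lists and measures were chosen with earlier results of these data known. Gene positions, base composition and sequences had been planned and were not run, as only tables of another build were used here.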

Additional observations from a re-analysis of the deposited data

How the results depend on the processing

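Of 89 values under alternatives, 46 for planned ones and 1 for an added one stayed within the 95% interval of the reported value (counts: within 1.5 times). A change of sign was possible only for the correlations, as counts, shares, widths and scores cannot be negative, and none occurred. No cause was tested for the values outside the interval unless given. A reciprocal overlap of 50% gave 5784 sites, 54.4% of SAFB peaks, a median width of 1776 bp, a median score of 74.3, 29.2% with a neighbour within 50 kb and 26.9% with SAFB2 within 10 kb; overlapping peaks then count as members. Requiring 1 kb from any other list gave 27.8% of SAFB peaks, 1267 bp, a score of 69.6, and 18.4 and 8.99%. The better scoring 50% of SAFB gave 1618 sites, 30.4%, 1608 bp, a score of 97.5, 10.3% on X and 12.7% with a neighbour, from fewer peaks by construction. With 6670 peaks per list the values were 41.1%, 1637 bp, 86.5, and 15.7 and 13.2%. Windows of 500 bp gave 51.9%, a score of 74.4, and 26.7 and 26.3%; their width is fixed. Without SAFB2 there were 5713 sites, 53.7%, and without UTP6 40.0%. Neighbours within 10 and 100 kb were found for 10.6 and 33.3%, and SAFB2 within 1, 50 and 100 kb of 6.16, 31.5 and 48.0%. The correlation with SAFB2-only sites was 0.058 in bins of 100 kb and 0.26 in bins of 5 Mb. UTP6 lay within 1 kb of 12.9%, within 100 kb of 85.5%, and with 6670 peaks within 10 kb of 12.7%. Chosen after seeing the data, joining members within 1 kb gave 17.8% with a neighbour, and members with no shared SAFB peak within 1 kb had SAFB2 within 10 kb at 11.1%. Alternatives for gene positions and base composition were not run. No paired analysis was possible because the SAFB list has no replicate.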

Other observations

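The unplaced sequence assigned to the Y chromosome held 63 SAFB-only sites, 1.70% of all, and 55.3% (46.1 to 64.1%) of the SAFB peaks there were SAFB-only. Its share of the other SAFB peaks was 0.736% and of the SAFB2 peaks 0.944%, against 0.0271 to 0.268% in the 7 remaining lists. These sites were narrow, with a median of 949 bp, and had a median score of 80.0. Of them 42.9% lay over 100 kb from a peak of any other list, compared with 6.63% of the autosomal sites. The 5 members farthest from any other list, 805 to 1409 kb away, were all on this sequence; they were singled out after their values were seen. This sequence is rich in repeats, and how reads with several matches were treated is not given in the sources used here.

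The bins of 1 Mb with most SAFB-only sites were of unlike kinds. The window of chromosome 13 from 66000001 to 67000000 held 10, together with 33 other SAFB peaks, 39 SAFB2 peaks and 82 UTP6 peaks. The window of chromosome 6 from 111000001 to 112000000 held 8, with 1 other SAFB peak, 2 SAFB2 peaks and 7 UTP6 peaks. Windows on chromosome 3 from 11000001 and from 17000001, and on chromosome 4 from 69000001, held 7 each, with 2 to 4 other SAFB peaks and 5 to 8 UTP6 peaks.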
